A study of Mus musculus with 24 samples.

Results

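Fatty acids are burned for energy inside mitochondria, and 10 genes of that pathway were followed here: Cpt1a, Slc25a20, Cpt2, Acadvl, Acadl, Acadm, Acads, Hadha, Hadhb and Etfdh. They were found by their symbols among the 24421 genes of the deposited count tables, and all 10 were present. The study isolated T cells carrying CD45, CD3 and CD8 from pancreas or blood of mice, sequenced their total RNA and counted reads per gene in 24 libraries. KC pancreas gave 12 libraries, with 3 at 4 weeks after birth, 2 at 9, 3 at 13, 2 at 20 and 2 at 30 weeks. KC blood gave 9 libraries, with 2 at 4 weeks, 1 at 9, 3 at 13, 1 at 20 and 2 at 30 weeks. WT pancreas gave 1 library at 9 weeks and 1 at 30 weeks, and WT blood gave 1 library at 30 weeks, from B6 mice. The KC strain serves as a model of pancreatic ductal adenocarcinoma and its precursor lesions. Their alleles, the driver of any transgene and any pooling of animals are not given in the sources used here, and nothing says that replicates are separate animals, so p-values measure the spread between libraries.

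In beta-oxidation, long-chain fatty acids enter the mitochondrion as carnitine esters and are then shortened in repeated rounds of a dehydrogenase, a hydratase, a second dehydrogenase and a thiolase. Each first dehydrogenase prefers a range of chain lengths and passes its electrons through the electron transfer flavoprotein to the respiratory chain. In CD8 T cells this pathway is known for its role in memory cells and in cells that meet little glucose, as in tumours.

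Promoter windows of 4 of the genes are shown because their values are set side by side in the results: Acadvl, the gene of the very-long-chain dehydrogenase, Acadm and Cpt1a, whose levels were the most alike among the 10 genes, and Hadhb, whose window overlaps that of its partner Hadha. The sequences are from RefSeq on GRCm38.p6, the build also called mm10, and run 5′ to 3′ on the gene's strand from 250 bases before the start of transcription to 50 after it. All 10 genes had a window. Capitals mark the nuclear receptor half-site AGGTCA on either strand (TGACCT when read on the other) and the NRF1 core GCATGCGC.
Acadvl, chr11:70015379-70015678, minus strand: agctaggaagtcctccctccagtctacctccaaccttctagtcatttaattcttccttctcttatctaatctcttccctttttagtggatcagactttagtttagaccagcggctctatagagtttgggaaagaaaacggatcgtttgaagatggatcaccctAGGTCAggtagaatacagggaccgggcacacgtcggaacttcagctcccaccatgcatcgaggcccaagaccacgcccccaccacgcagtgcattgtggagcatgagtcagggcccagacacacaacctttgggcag
Acadm, chr3:153944594-153944893, minus strand: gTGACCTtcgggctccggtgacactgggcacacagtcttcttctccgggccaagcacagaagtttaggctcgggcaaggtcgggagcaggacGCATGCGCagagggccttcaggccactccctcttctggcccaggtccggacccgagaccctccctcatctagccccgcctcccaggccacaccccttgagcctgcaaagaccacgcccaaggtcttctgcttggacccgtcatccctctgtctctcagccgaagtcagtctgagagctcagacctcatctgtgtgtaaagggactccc
Cpt1a, chr19:3323051-3323350, plus strand: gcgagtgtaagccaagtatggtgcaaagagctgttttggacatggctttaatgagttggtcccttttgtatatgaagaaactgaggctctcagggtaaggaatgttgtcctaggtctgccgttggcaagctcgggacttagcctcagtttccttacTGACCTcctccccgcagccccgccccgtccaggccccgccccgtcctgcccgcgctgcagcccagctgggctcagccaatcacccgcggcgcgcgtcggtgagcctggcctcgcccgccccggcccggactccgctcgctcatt
Hadhb, chr5:30155003-30155302, plus strand: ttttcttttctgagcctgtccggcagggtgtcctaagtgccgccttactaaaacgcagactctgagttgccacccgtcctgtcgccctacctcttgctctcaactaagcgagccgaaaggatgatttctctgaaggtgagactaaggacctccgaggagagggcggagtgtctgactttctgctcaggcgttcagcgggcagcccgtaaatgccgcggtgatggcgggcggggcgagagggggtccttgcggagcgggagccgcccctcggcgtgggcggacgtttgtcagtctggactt
The half-site AGGTCA lay in the windows of Acadvl, Acadm and Cpt1a, that is in 3 of 10, against 16.3% of all 32851 windows. The NRF1 core lay in Acadm and Etfdh, 2 of 10, against 2.71% of all windows. Neither TNAAGGTCA, the extended half-site of estrogen-related receptors, nor the direct repeat bound by PPAR and RXR, a pair of half-sites AGGTCA in tandem with 1 base between them, lay in any of the 10, against 1.28% and 0.0396% of all windows. Both of these longer motifs contain the half-site, and a match of letters is a description of the window. Hadha and Hadhb start 86 bases apart on opposite strands of chromosome 5, and their windows share 228 bases.

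Libraries held 6352070 to 16716169 reads counted in genes, and levels are given as counts per 1000000 of these reads (CPM). The summed CPM of 8 markers of CD8 T cells was 9107 to 21192 in KC pancreas, 9521 to 17799 in KC blood, 12082 to 13664 in WT pancreas and 10443 in WT blood, with all 8 detected in each group. Low-level traces of genes abundant in single libraries split the 24 libraries into 2 sets of 12: set 1 held KC pancreas of 4 and 13 weeks, 3 KC blood libraries and the 3 WT libraries, and set 2 held the rest. None of the 10 genes was among the 95 trace genes. In 4 libraries over 12000 genes were detected (Sample_95P8 of KC pancreas, Sample_95B8 and Sample_132B8 of KC blood, and the WT blood library), against at most 11306 in the others. Of cells the sort should remove, the 7 acinar markers summed to 0 to 5417 CPM in KC pancreas, 0 to 51.3 in KC blood, 800 to 2241 in WT pancreas and 48.6 in WT blood. This sum followed the trace sets, at 44.7 CPM or more in all of set 1 and at most 1.28 CPM in set 2. Whether these reads came from acinar cells or were traces from other libraries was not tested. The 5 adipocyte markers summed to 0.13 to 69.4 CPM in KC pancreas, 0 to 6.46 in KC blood, 0.08 to 2.66 in WT pancreas and 0.84 in WT blood, with Adipoq, Plin1 and Lep at 0 in every group and Fabp4 at 0 in all but KC pancreas. The 4 platelet markers summed to 1.89 to 94.2 CPM in KC pancreas and 39.4 to 291 CPM in KC blood, with medians of 3.56 and 136. Their sum was 2.79 to 3.32 CPM in WT pancreas and 345 CPM in WT blood. For the 4 erythroid markers it was 1.34 to 9.52 CPM in KC pancreas and 7.15 to 114 CPM in KC blood. WT pancreas had 4.75 to 12.6 CPM of these and WT blood 106 CPM, with Hbb-bs and Hba-a1 at 0 in every group. The part of other cells in the levels below was not tested, and in bulk libraries fewer cells of a type and less RNA per cell cannot be told apart.

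Set side by side per kilobase of transcript, with the longest principal transcript of GENCODE M21 as the length, Hadhb was the highest of the 10 genes. Its median over the 24 libraries was 60.5 CPM per kb. Etfdh followed at a median of 20.8, Hadha at 15.4 and Cpt1a at 14.7 CPM per kb, and then Acadm at 7.29, Acadl at 3.87, Acadvl at 1.99 and Slc25a20 at 1.95. Acads, at 0.54, and Cpt2, at 0.05, were the lowest. The lowest Hadhb library, at 20.9 CPM per kb, was above the median of Etfdh, but every other pair of neighbours in this order had ranges that overlapped widely. Acadvl, for one, ran from 0.14 to 99.3 CPM per kb and Acadl from 0.05 to 47.9.

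Levels varied widely between libraries, in most of these genes as in the table as a whole. The SD of log2 CPM over the 24 libraries was 0.81 for Hadhb, at percentile 2.89 among the 13474 genes that passed the filter. It was 1.58 for Hadha, 2.002 for Etfdh, 2.03 for Cpt1a and 2.10 for Slc25a20, around the median of 1.89 over all these genes. Acads at 2.31, Acadl at 2.34, Acadvl at 2.35, Acadm at 2.42 and Cpt2 at 2.47 were above it. Apart from Hadhb, the genes thus lay between percentile 34.5, for Hadha, and 84.9, for Cpt2. These percentiles take no account of level, and Hadhb was the highest of the 10 genes. Libraries had 2 to 8 of the 10 genes above 5 CPM.

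**Figure D1:**
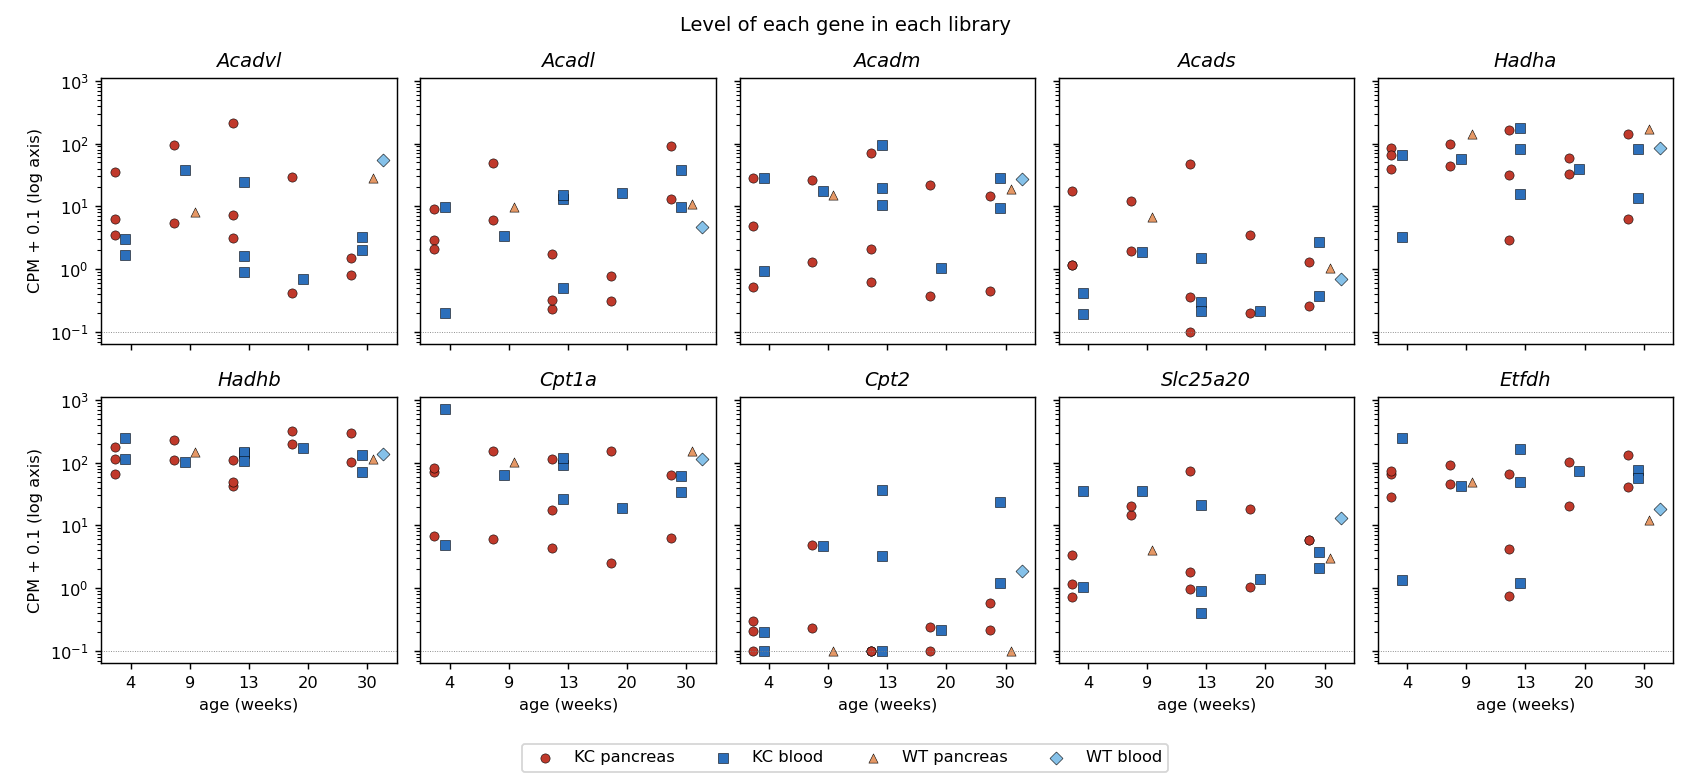
Level of each of the 10 genes in each of the 24 libraries, as CPM plus 0.1 on a log axis against the age of the mice in weeks. Each point is 1 library, red circles KC pancreas, blue squares KC blood, orange triangles WT pancreas and light blue diamonds WT blood. Hadhb stayed between 42.9 and 324 CPM, while Acadvl ranged from 0.31 to 215 CPM within KC pancreas.

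Cpt1a encodes the outer membrane carnitine palmitoyltransferase that makes the carnitine esters and is the regulated entry step of the pathway. In KC pancreas it held 69.6, 81.4 and 6.74 CPM at 4 weeks, 5.92 and 155 at 9, 116, 17.3 and 4.34 at 13, 2.45 and 155 at 20, and 62.3 and 6.30 at 30 weeks. KC blood had 711 and 4.84 CPM at 4 weeks, 64.5 at 9, 90.7, 117 and 26.4 at 13, 18.5 at 20, and 60.9 and 33.7 at 30 weeks. At every age a KC pancreas library of 6.74 CPM or less stood beside one of 62.3 CPM or more, and the 711 CPM of Sample_42B8 stood alone. That library also had the highest summed CPM of the 3 endothelial markers, 522 CPM, with Kdr at 0, and their part in its Cpt1a level was not tested. The range of these markers was 6.05 to 247 CPM in KC pancreas and 12.8 to 522 CPM in KC blood. WT pancreas had 101 and 153 CPM and WT blood 113 CPM.

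Slc25a20, the carrier that swaps acylcarnitines for free carnitine across the inner membrane, had a lower median per kilobase than Cpt1a. It ranged from 0.63 to 73.8 CPM in KC pancreas, with a median of 4.50, and from 0.31 to 35.1 CPM in KC blood, with a median of 1.99. WT pancreas had 3.89 and 2.87 CPM, and WT blood 13.2 CPM. Its highest value, 73.8 CPM, was in Sample_132P8, a 13-week library in which 4 other genes of the 10, Acadl, Acadm, Acads and Cpt2, were all under 1 CPM.

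Cpt2, which turns the esters back into acyl-CoA inside the mitochondrion, was close to the limit of detection, with 700 reads over all 24 libraries. In KC pancreas 5 of 12 libraries had no read, 6 had 0.11 to 0.47 CPM and Sample_95P8 had 4.85 CPM. In KC blood 2 of 9 libraries had no read, and Sample_133B8 with 36.8 and Sample_302B8 with 23.4 CPM held most of the reads, ahead of Sample_95B8 with 4.57, Sample_132B8 with 3.17 and Sample_303B8 with 1.11 CPM. WT pancreas had no read in either library and WT blood had 1.79 CPM. All 4 libraries with over 12000 genes lay between 1.79 and 4.85 CPM, and 18 of the other 20 libraries lay below that range.

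Acadvl encodes the very-long-chain acyl-CoA dehydrogenase, bound to the inner membrane, and overlaps Dvl2 and Mir324 on the opposite strand of chromosome 11. Strand use in the counting is not stated, so it is open how reads in the stretch shared by Acadvl and Dvl2 were assigned. In KC pancreas Acadvl held 34.6, 6.28 and 3.37 CPM at 4 weeks, 5.26 and 93.1 at 9, 7.19, 2.97 and 215 at 13, 28.9 and 0.31 at 20, and 0.71 and 1.42 at 30 weeks. KC blood had 1.55 and 2.88 CPM at 4 weeks, 37.5 at 9, 0.81, 23.9 and 1.51 at 13, 0.59 at 20, and 3.18 and 1.95 at 30 weeks. The groups overlapped, and 2 of 12 KC pancreas libraries were above the highest KC blood library. WT pancreas had 7.98 CPM at 9 and 27.7 CPM at 30 weeks, and WT blood 54.1 CPM. The 4 libraries with over 12000 genes had 23.9 to 93.1 CPM, and 16 of the other 20 lay below that range, with a median of 3.07 CPM. The part of gene number in the Acadvl level itself was not tested, and comparisons without these libraries are given below.

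Acadl, the long-chain dehydrogenase of rodents, ranged from 0.13 to 91.8 CPM in KC pancreas, with a median of 2.42, and from 0.10 to 37.8 CPM in KC blood, with a median of 9.82. In KC pancreas it was under 1 CPM in both 20-week libraries and in 2 of 3 13-week libraries, and at 12.9 and 91.8 CPM at 30 weeks. The 91.8 CPM was in Sample_302P8, which also had the highest sum of the adipocyte markers, 69.4 CPM, all of it from Lpl, with Adipoq, Plin1 and Lep at 0. It also had the highest sum of the 6 macrophage and monocyte markers in KC pancreas, 187 CPM. These ran from 1.66 to 187 CPM in KC pancreas and from 2.14 to 342 CPM in KC blood. The part of either set of markers in the Acadl level was not tested. Acadl was at 9.59 and 10.6 CPM in WT pancreas and 4.67 CPM in WT blood. Acadm, the medium-chain dehydrogenase, ranged from 0.27 to 71.0 CPM in KC pancreas, with a median of 3.38, and from 0.82 to 93.5 CPM in KC blood, with a median of 17.2. WT pancreas had 15.2 and 19.1 CPM and WT blood 27.6 CPM. The highest Acadm libraries of both KC tissues, Sample_131P8 and Sample_131B8, carry the same number, though the labels do not say that such libraries are from 1 animal. The same was seen for Hadha, with Sample_133P8 and Sample_133B8, and not for the other genes.

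Acads, the short-chain dehydrogenase, had the lowest median per kilobase of the 4. It ranged from 0 to 46.7 CPM in KC pancreas, with a median of 1.13, and from 0.09 to 2.65 CPM in KC blood, with a median of 0.28. WT pancreas had 6.74 and 0.96 CPM and WT blood 0.60 CPM. In KC pancreas 4 of 12 libraries were above every KC blood library: Sample_131P8 with 46.7, Sample_43P8 with 17.5, Sample_94P8 with 12.2 and Sample_204P8 with 3.41 CPM.

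The long-chain pair was next set against the medium- and short-chain pair within each library, per kilobase. The log2 ratio of Acadvl plus Acadl over Acadm plus Acads ran from -5.40 to 6.70 in KC pancreas, with a median of 1.80, and was above 0 in 8 of 12 libraries. In KC blood it ran from -6.28 to 4.06, with a median of 0.78, and was above 0 in 6 of 9. WT pancreas had -0.34 and 0.90 and WT blood 0.99. The long-chain pair thus led in some libraries of each KC tissue and trailed in others.

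One gene usually held most of the dehydrogenase signal of a library. The highest of the 4 took 37.7% to 98.9% of their summed CPM per kb, with a median of 70.8% over the 24 libraries. It was Acadvl in 5, Acadm in 4, Acadl in 2 and Acads in 1 of the 12 KC pancreas libraries, and Acadvl, Acadm and Acadl in 3 each of the 9 KC blood libraries. At 30 weeks Acadl took 97.7% in Sample_302P8, while Acadm, at 48.9%, just led Acadl in Sample_303P8. The lowest share, 37.7%, was that of Acadm in the 9-week WT pancreas library. Some of these shares and log2 ratios rest on few reads. Acadvl, Acadl, Acadm and Acads had 23, 1, 4 and 2 reads in Sample_132P8, and 28, 1, 8 and 3 in Sample_43B8.

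**Figure D2:**
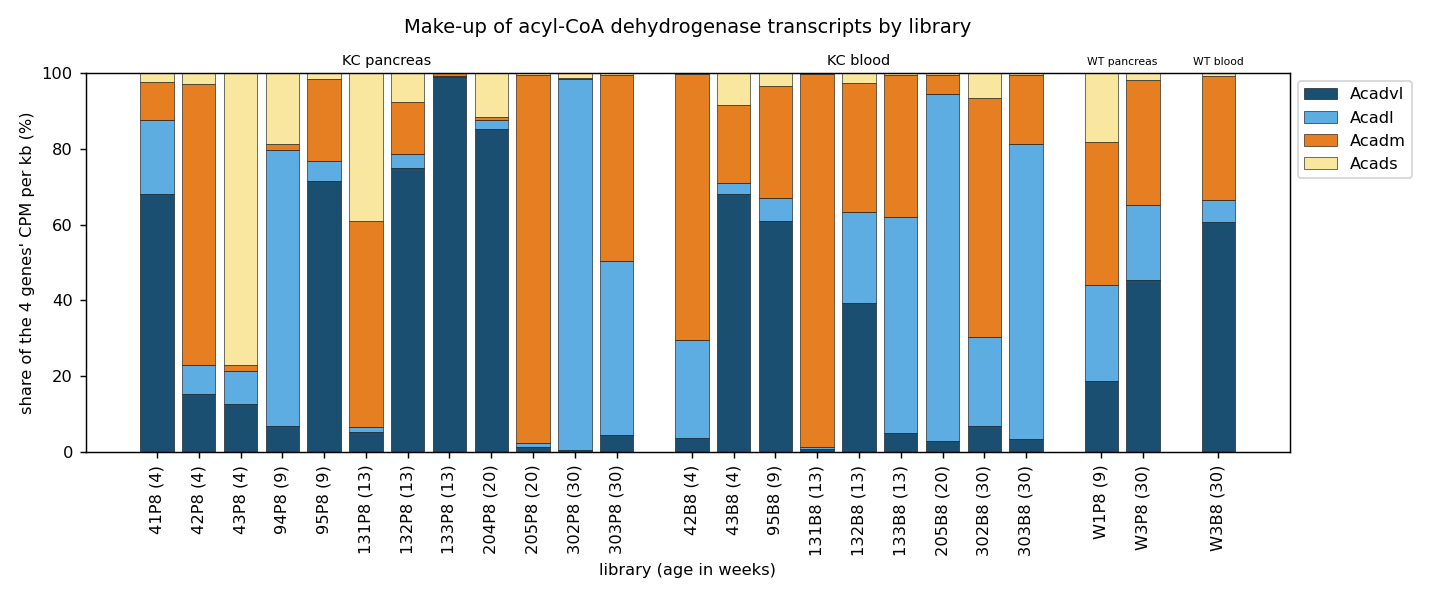
Make-up of the 4 acyl-CoA dehydrogenase transcripts in each of the 24 libraries, as the percent of their summed CPM per kb. Each bar is 1 library with its age in weeks, and colours stand for Acadvl, Acadl, Acadm and Acads. Acadvl took 98.9% in Sample_133P8, Acadm 97.2% in Sample_205P8 and Acadl 97.7% in Sample_302P8.

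Hadha and Hadhb encode the alpha and beta subunits of the mitochondrial trifunctional protein, which carries out the 3 later steps for long chains. Hadhb held 116, 177 and 65.3 CPM in KC pancreas at 4 weeks, 109 and 228 at 9, 109, 42.9 and 48.5 at 13, 196 and 324 at 20, and 298 and 101.7 at 30 weeks. KC blood had 248 and 116 CPM at 4 weeks, 101.9 at 9, 140, 149 and 106 at 13, 172 at 20, and 71.5 and 131.5 at 30 weeks. WT pancreas had 150 and 115 CPM and WT blood 138 CPM. The groups overlapped, and KC pancreas held both the lowest and the highest library.

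Hadha varied more than its partner. It ranged from 2.84 to 162 CPM in KC pancreas, with a median of 51.2, and from 3.09 to 176 CPM in KC blood, with a median of 56.9. WT pancreas had 143 and 169 CPM and WT blood 84.1 CPM. Per kilobase, Hadhb was higher than Hadha in 23 of 24 libraries, with a ratio of 0.59 to 32.5 and a median of 5.43 in KC pancreas, and of 1.18 to 73.8 and a median of 7.52 in KC blood. The exception was Sample_133P8, the library with the highest Acadvl and the highest Hadha of KC pancreas. Ratios of 29.6 or more came from the libraries with the lowest Hadha, namely Sample_132P8, Sample_303P8 and Sample_43B8.

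**Figure D3:**
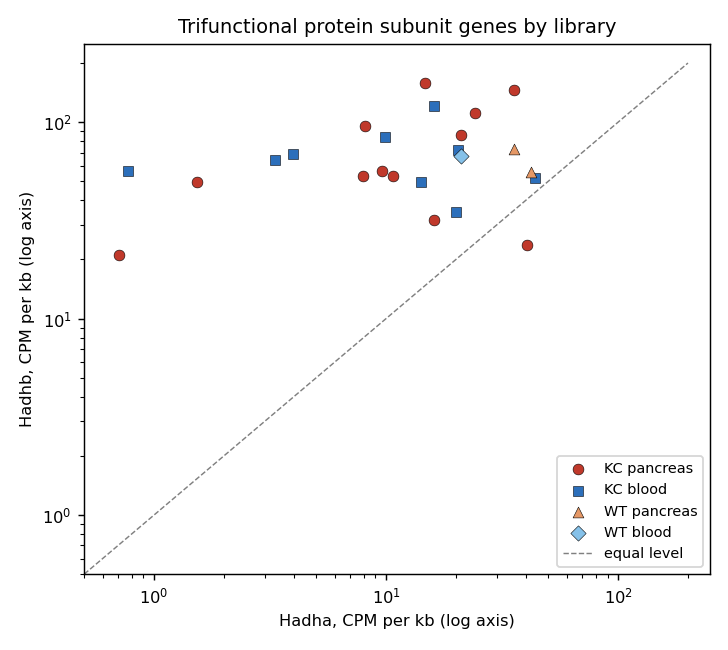
Level of Hadhb against that of Hadha in each of the 24 libraries, both as CPM per kb on log axes, with the dashed line at equal levels. Points are libraries, red circles KC pancreas, blue squares KC blood, orange triangles WT pancreas and a light blue diamond WT blood. All but 1 library lie above the line, and Hadhb spans 20.9 to 158 CPM per kb where Hadha spans 0.71 to 43.9.

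Etfdh encodes the oxidoreductase that hands electrons from the flavoprotein to ubiquinone. It ranged from 0.65 to 131.6 CPM in KC pancreas, with a median of 55.9, and from 1.12 to 247 CPM in KC blood, with a median of 56.4. WT pancreas had 49.4 and 12.1 CPM and WT blood 18.5 CPM. It was under 5 CPM in 2 KC pancreas libraries, Sample_132P8 and Sample_133P8, and in 2 KC blood libraries, Sample_42B8 and Sample_131B8. Etfdh overlaps 4930579G24Rik on the opposite strand, and how reads in the shared stretch were assigned is likewise open.

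The first comparison asked whether these genes differ between T cells of the diseased organ and of the circulation. In a fit of the 21 KC libraries that took out age, none of the 10 genes was called by edgeR's quasi-likelihood test at a Benjamini-Hochberg adjusted p under 0.05, against 0.0904% of the 11059 genes tested. At an unadjusted p under 0.05 there were 3 of 10, against 9.85% of all genes. KC pancreas and KC blood overlapped in all 10 genes, and failed to overlap in 0.0271% of all genes tested. The median log2 fold change was -0.19 over the 10 genes and -0.12 over all genes tested.

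Those with an unadjusted p under 0.05 were Acads, Cpt2 and Acadvl. Acads averaged 7.12 ± 13.6 CPM in KC pancreas (SD, n = 12) and 0.77 ± 0.94 CPM in KC blood (SD, n = 9). Its log2 fold change was 3.67 ± 1.47 (SE), with an adjusted p of 0.355 by edgeR, and 1.71 without Sample_131P8. Acadvl averaged 33.3 ± 63.2 CPM in KC pancreas (SD, n = 12) and 8.21 ± 13.2 CPM in KC blood (SD, n = 9). Its log2 fold change was 2.31 ± 1.15 (SE), with an adjusted p of 0.507 by edgeR. Without Sample_133P8 it was 0.97, and without the libraries with over 12000 genes it was 2.90. Sample_133P8 also had the highest summed CPM of the 4 ductal markers, 334 CPM. These summed to 0.12 to 334 CPM in KC pancreas, with all 4 detected, and to 0.12 to 1.16 CPM in KC blood, with Krt19 and Sox9 at 0, and their part in the result was not tested.

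Cpt2 averaged 0.50 ± 1.38 CPM in KC pancreas (SD, n = 12) and 7.71 ± 13.2 CPM in KC blood (SD, n = 9). The log2 fold change was -3.65 ± 1.79 (SE), with an adjusted p of 0.501 by edgeR. DESeq2 gave -3.64 with an adjusted p of 0.0435 and so called Cpt2, as it did 5.71% of the genes for which it gave an adjusted p. It gave none for Acadvl, Acadm, Acads and Slc25a20, so 6 of the 10 could be called. This was the only call among the values tested for the 10 genes. Without Sample_302B8 the edgeR value was -2.38.

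Within the trace sets, the Acadvl difference was 3.12 in set 1 and 0.69 in set 2, and that of Acads 4.90 and 1.57, on the log2 scale, KC pancreas over KC blood. Of the sets, Cpt2 passed the filter in set 2 but not in set 1, and its difference there was -2.61. None of these values was called. Among 9 pairs of KC libraries with the same title number, the level was higher in pancreas in 5 for Acadvl, 4 for Acads and 3 for Cpt2.

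The other 7 genes had log2 fold changes from -1.46 for Acadl to 0.75 for Slc25a20, KC pancreas over KC blood, with adjusted p from 0.766 by edgeR. The Acadl value came from the fit with age, while its means were 14.6 ± 27.8 CPM in KC pancreas (SD, n = 12) and 11.7 ± 11.5 CPM in KC blood (SD, n = 9). It was 0.61 without the age term and -0.65 without Sample_205B8. Slc25a20 turned to -0.97 without Sample_132P8. Cpt1a had -0.81 ± 0.88 (SE), and 0.51 without Sample_42B8, and Hadha had 0.57 ± 0.73 (SE). The Hadha value was 0.10 without Sample_133P8, 0.14 without Sample_302P8 and 1.03 without Sample_42B8. Hadhb had 0.00 ± 0.54 (SE), the smallest of the 10, with mean levels of 151 ± 93.9 CPM in KC pancreas (SD, n = 12) and 137 ± 50.8 CPM in KC blood (SD, n = 9).

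**Figure D4:**
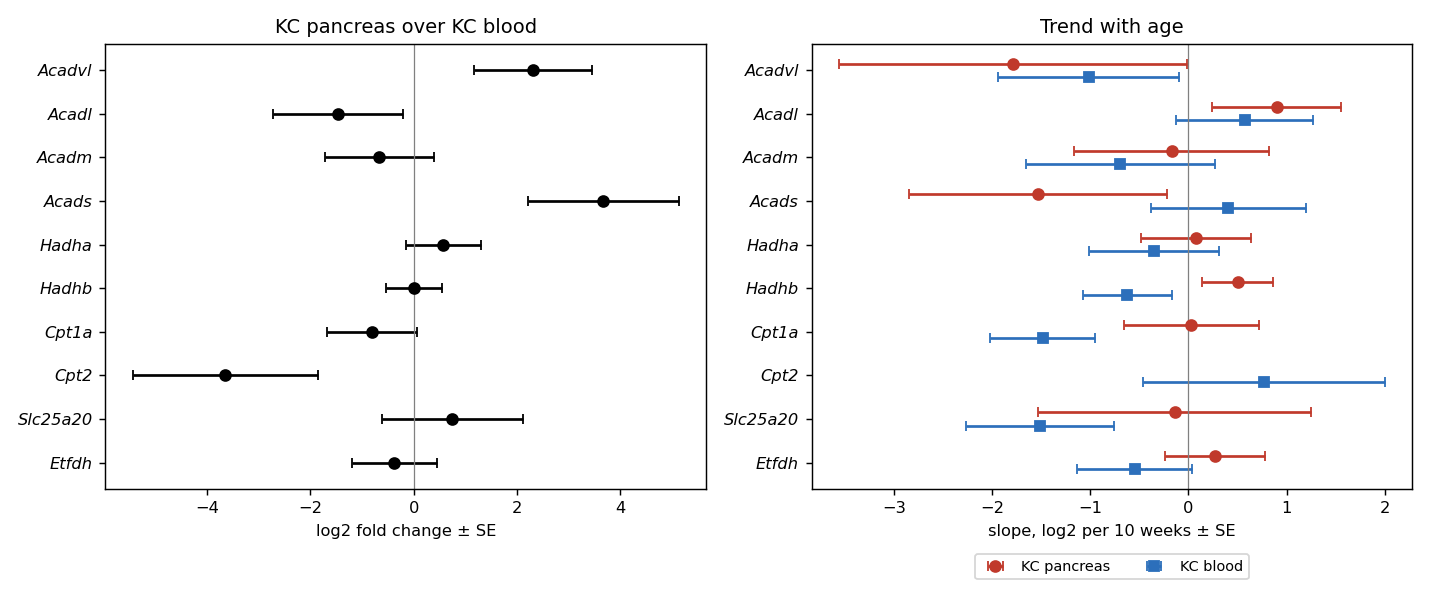
Left, log2 fold change of KC pancreas over KC blood for each gene, and right, its slope with age in log2 per 10 weeks, in KC pancreas (red circles) and KC blood (blue squares). Bars are the SE of the edgeR fit. Cpt2 was not tested for age in KC pancreas. No value passed an adjusted p of 0.05, and the farthest from 0 on the left were Acads at 3.67 and Cpt2 at -3.65.

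The second comparison followed the genes with age, since disease in KC mice advances with it. In the 12 KC pancreas libraries 9 of the 10 genes passed the filter, all but Cpt2, and none was called, against 0.293% of the 9555 genes tested. None of the 9 had an unadjusted p under 0.05 either, against 8.95% of all genes, and DESeq2 called none of the 5 for which it gave an adjusted p, against 5.61%. The adjusted p was at least 0.804 by edgeR. Hadhb had a slope of 0.50 ± 0.36 (SE) and Acadl of 0.90 ± 0.66 (SE), in log2 per 10 weeks. Without Sample_302P8 the Acadl slope was -0.21. Acadvl had -1.79 ± 1.78 (SE), with a median of 6.28 CPM at 4 weeks (n = 3), 49.2 at 9 (n = 2), 7.19 at 13 (n = 3), 14.6 at 20 (n = 2) and 1.06 at 30 weeks (n = 2). Age and trace set are tied in KC pancreas, where the ages of 4 and 13 weeks were all in set 1. In set 1 alone, with these 2 ages only, the Acadvl slope was 3.83, which turns the direction. In set 2 alone it was -2.31, and with trace set as a term -0.93. With both sets and no set term, the Acadvl slope was -0.35 without Sample_302P8, -0.39 without Sample_303P8 and -1.11 without Sample_133P8. Without Sample_95P8, the KC pancreas library with over 12000 genes, the Acadvl slope was -1.89. The acinar markers summed to 1005 to 5417 CPM at 4 weeks, 61.5 to 463 at 13 and at most 0.37 at 9, 20 and 30 weeks in KC pancreas. That split of the ages is also the split of the trace sets, and the part of these markers in the slopes was not tested.

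In the 9 KC blood libraries all 10 genes were tested and none was called, against 0% of 9933 genes by edgeR. DESeq2 called none of the 7 for which it gave an adjusted p, against 3.68%. At an unadjusted p under 0.05 there was 1 of 10, against 8.76% of all genes. That gene was Cpt1a, with a slope of -1.48 ± 0.53 (SE) log2 per 10 weeks and an adjusted p of 0.471 by edgeR. Without Sample_42B8, the 4-week library at 711 CPM, the slope was -0.35. Slc25a20 had -1.51 ± 0.75 (SE) and an adjusted p of 0.568 by edgeR, and -1.01 without Sample_42B8.

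The slopes themselves were compared in the 21 KC libraries. None of the 10 genes was called for a difference of the slopes, KC pancreas minus KC blood, against 0.0543% of 11059 genes, and 1 of 10 had an unadjusted p under 0.05, against 8.33%. DESeq2 called none of the 6 for which it gave an adjusted p, against 2.78%. Hadhb had the smallest p, with a difference of 1.14 ± 0.54 (SE) log2 per 10 weeks and an adjusted p of 0.566 by edgeR, from slopes of 0.50 in KC pancreas and -0.62 in KC blood. In set 1 alone the difference was -0.0036 and in set 2 alone 0.38. Cpt1a differed by 1.54 ± 0.81 (SE), with an adjusted p of 0.636 by edgeR, and by 0.36 without Sample_42B8. In set 2 alone it differed by 0.029.

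The third comparison set KC against WT mice. In pancreas each WT age had 1 library and its own term in the fit. The spread behind the SE and p-values was therefore that of the KC pancreas libraries of all ages. In pancreas, over 9 and 30 weeks, none of the 10 genes was called, against 0.226% of 12374 genes, and adjusted p was at least 0.889 by edgeR. None had an unadjusted p under 0.05, against 5.79% of all genes, and DESeq2 called none of the 6 for which it gave an adjusted p, against 1.69%. The median log2 fold change was 0.17 over the 10 genes and 0.41 over all genes tested. The 4 KC libraries did not overlap the 2 WT libraries in 2 of the 10 genes, against 13.9% of all genes tested. Slc25a20 was higher in each KC library, at 5.67 to 20.6 CPM in KC pancreas and 2.87 and 3.89 CPM in WT pancreas, with a log2 fold change of 1.54 ± 1.94 (SE) and an adjusted p of 0.992 by edgeR. Cpt2 had 58 reads in the 4 KC libraries and none in WT pancreas. Of the 58 reads, 53 were in Sample_95P8, a library with over 12000 genes, and 5 in the other 3 libraries. For a floor of 3 reads over the WT group, the level pooled over the KC libraries was 13.4-fold that floor. This ratio rests mainly on Sample_95P8 and is not a lower bound for the other KC libraries. The Cpt2 log2 fold change was 5.68 ± 3.61 (SE), with an adjusted p of 0.889 by edgeR. The 4 KC libraries were in trace set 2 and both WT libraries in set 1, so that genotype and set cannot be told apart. The acinar markers summed to at most 0.37 CPM in these KC libraries, against 2241 and 800 CPM in WT pancreas, a split that is also that of the trace sets. The ribosomal RNA gene Rn45s took 2.63% to 12.1% of gene counts in the KC libraries, against 18.2% and 17.0% in WT pancreas. The part of either in these values was not tested.

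Acadvl was at 5.26, 93.1, 0.71 and 1.42 CPM in these KC pancreas libraries and at 7.98 and 27.7 CPM in WT pancreas. The log2 fold change was -1.27 ± 1.57 (SE), and 1.97 without the 30-week WT library, -4.52 without the 9-week one and -2.47 without Sample_95P8. Hadha had 43.1, 97.5, 143 and 6.14 CPM in KC pancreas, 3 of them below the 143 and 169 CPM of WT pancreas, and a log2 fold change of -1.18 ± 1.33 (SE), which was -3.01 without Sample_302P8 and -0.71 without Sample_303P8.

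In blood at 30 weeks 2 KC libraries were set against 1 WT library. The spread was taken from the KC blood ages with more than 1 library, which were 4, 13 and 30 weeks. None of the 10 genes was called, against 0% of 12496 genes. At an unadjusted p under 0.05 there were also none, against 2.83% of all genes, and DESeq2 called none of the 10, against 0.0996%. Acadvl had 3.18 and 1.95 CPM in KC blood and 54.1 CPM in WT blood, a log2 fold change of -4.48 ± 2.67 (SE) with an adjusted p of 1 by edgeR. The KC libraries lay on one side of the WT library in 7 of the 10 genes, against 63.1% of all genes tested. The WT library was in trace set 1 and both KC libraries in set 2, so that genotype and set cannot be told apart here either. The WT library is also 1 of the 4 with over 12000 genes. It held 16716169 reads in genes, against 7552921 and 7186520 in the KC libraries. Rn45s took 16.7% of its gene counts, against 1.94% and 3.95%. The acinar markers summed to 48.6 CPM in it, against at most 0.13 CPM in the KC libraries, a split that is also that of the trace sets. The part of any of these in the values was not tested.

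Other genes of the pathway were read in the same fits. Of 23 further mitochondrial genes, among them acyl-CoA synthetases and the enzymes of the later steps, 19 were tested between the KC tissues and none was called in either direction. Neither was any of 14 peroxisomal genes, all tested, nor of 12 regulators, of which 6 were tested. Their medians were 0.15, -0.19 and -0.15 on the log2 scale, KC pancreas over KC blood. The smallest p in each list was that of Acsl4, a long-chain acyl-CoA synthetase, with 1.25 ± 0.67 (SE) and an adjusted p of 0.545 by edgeR, of Abcd2, a peroxisomal fatty acid transporter, with -2.05 ± 1.24 (SE), and of Ppard, a nuclear receptor for fatty acids, with 1.87 ± 1.56 (SE). With age in KC pancreas none of 19, 10 and 6 tested genes of these lists was called. Eci1, an isomerase for unsaturated chains, had a slope of 3.44 ± 1.44 (SE) log2 per 10 weeks with an adjusted p of 0.432 by edgeR. Rxra, the partner receptor of the PPARs, had -1.66 ± 0.66 (SE) with an adjusted p of 0.398 by edgeR. In the other 4 comparisons none of the genes of the 3 lists was called either.

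Of the 45 pairs of the 10 genes, 26 had a positive Spearman correlation of log2 CPM over the 24 libraries, with a median of 0.02. The highest was 0.79 for Acadm and Cpt1a, and the lowest was -0.55 for Acadvl and Etfdh. The genes most like Acadvl among the 13474 were Smim7 at 0.77, Ppcs at 0.76 and Gpx3 at 0.76. Smim7 had 45.0 CPM in Sample_133P8, where Acadvl was at its highest, and 0.12 CPM in Sample_302P8. Ppcs was under 1 CPM in most libraries. Gpx3 was at 0.22 CPM in Sample_133P8 and above 1.32 CPM only in Sample_95B8, at 8.69, and Sample_W3P8, at 23.7. The correlations of Ppcs and Gpx3 thus rest largely on values near the floor. Correlations over libraries share depth, trace set and gene number and are given as descriptions.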

How the data were processed

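RNA of sorted CD8+ T cells was sequenced in 24 libraries, 12 of KC pancreas, 9 of KC blood, 2 of WT pancreas and 1 of WT blood, grouped by the sample labels. The deposited values are raw read counts per gene symbol. TopHat, SAMtools, HTSeq, DESeq and mm10 are named in the submitters' processing notes, with no versions, and annotation and strand use are not given in the sources used here. The 5 tallies of reads in no gene were left out, and 11.7% to 32.5% of tallied reads lay in genes.

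CPM is a count over the library's summed gene counts, and the depth of 6352070 to 16716169 reads sets its counting error. Tests were two-sided robust quasi-likelihood F-tests of edgeR 4.0.16 (R 4.3.3) after TMM scaling and a filter by filterByExpr (minimum count 10), with p-values adjusted over all genes of each of 6 comparisons. The SE is the absolute log2 change over the square root of F. Alternatives were RLE scaling, no filter, DESeq2 1.42.0, leaving out each library, no age term and a replicate block. Terms for the trace sets and leaving out libraries with over 12000 genes were chosen after seeing the data. Trace genes were those of 100 CPM or more in 1 library that reached no more than 5% of this level in any other.

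All 10 genes are named. Of the other lists, the 2 genes with the smallest p per list were taken between tissues and with age in KC pancreas, and for likeness to Acadvl the 3 highest correlations. Correlations and spread used log2 CPM with a prior count of 1. The genes and lists were chosen with earlier results of these data known. Numbers in titles are shared by pancreas and blood libraries, but no label says that they mark 1 animal.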

Additional observations from a re-analysis of the deposited data

Results flagged for a closer look

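In KC blood (n = 9) single libraries stood far from the rest in 4 of the 10 genes, by the gap in CPM to the nearest library over the whole range (Dixon's criterion). Chance meets it in about 1 of 20 groups only where values are normally distributed. The CPM of these genes was skewed, so that rate does not apply here and the flags are descriptions on the CPM scale. Cpt1a was at 711 CPM in Sample_42B8, where the next highest library had 117 CPM. Acadm was at 93.5 CPM in Sample_131B8, against 28.3 CPM in the next. Hadha was at 176 CPM in Sample_133B8, against 81.9 CPM in the next. Acadl was at 37.8 CPM in Sample_303B8, against 16.4 CPM in the next. The 4 genes were highest in 4 different libraries. KC pancreas, with 12 libraries, was larger than the group sizes for which the criterion was applied here, and the WT groups were too small.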

How the results depend on the processing

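Of the 10 genes none was called under another setting that gave it an adjusted p, except Cpt2 between the KC tissues by DESeq2, where 1 gene was called. DESeq2 gave an adjusted p for 5 to 10 of them per comparison. Depth limits Cpt2 and Acads, whose medians were under 2 CPM in both KC tissues. Of 1040 recomputed values 41 turned their direction under another setting and 48 with 1 library left out. The cause was not tested. Without the WT library, KC blood could not be set against WT blood.

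Between KC pancreas and KC blood, the turned log2 values were as follows. Hadhb was -0.045 with RLE scaling, -0.045 with DESeq2, -0.080 with trace set as a term, -1.39 in set 1 and -0.21 without libraries with over 12000 genes. Acadl was 0.61 with no age term and 0.25 in set 2. Slc25a20 was -0.035 with the set term and -3.08 in set 1. Etfdh was 0.39 with the set term and 0.83 in set 2. Acadm was 0.27 and Cpt1a 0.78 in set 2. With a replicate block by title number, which the labels do not tie to animals, Etfdh turned to 0.33, Acadvl was 0.66, Acads 1.06 and Cpt2 -2.34, with 0 of the 10 called. In 7 pairs deviations of same-numbered libraries correlated at -0.05 to 0.01, with 0 pairs over 0.1 and 2 correlating best with their own number. The block called 14 genes of the whole table, against 10 without it.

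For the age slope in KC pancreas the set term gave 0.32 for Acadm, -0.062 for Cpt1a, 0.30 for Slc25a20 and -0.046 for Etfdh. Set 1 gave 3.83 for Acadvl, -2.34 for Acadl, 1.83 for Acadm, 1.58 for Acads, -0.026 for Hadhb, 5.78 for Slc25a20 and -0.95 for Etfdh, and set 2 gave -0.29 for Cpt1a. In KC blood the set term gave 0.47 for Acadm and -0.32 for Cpt2. Set 1 gave -3.58 for Acadl, 3.38 for Acadm and 0.085 for Hadhb, and set 2 gave 0.093 for Acadm and -0.26 for Cpt2. The difference of the slopes was 4.88 for Acadvl, -1.43 for Acadm, 1.05 for Acads and -0.0036 for Hadhb in set 1, and -0.35 for Acadl and -0.18 for Acadm in set 2. For KC against WT pancreas Acads was 0.012 with RLE scaling and 0.0087 with DESeq2.

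With 1 library left out, the values that could change sign between the KC tissues ran from -1.26 to 0.091 for Acadm, -0.22 to 0.32 for Hadhb, -1.33 to 0.51 for Cpt1a, -0.97 to 1.74 for Slc25a20 and -0.81 to 0.47 for Etfdh. The slopes in KC pancreas ran from -0.21 to 1.35 for Acadl, -0.42 to 0.28 for Acadm, -0.60 to 0.38 for Hadha, -0.29 to 0.37 for Cpt1a, -0.60 to 0.86 for Slc25a20 and -0.034 to 0.41 for Etfdh. In KC blood they ran from -0.54 to 0.70 for Acads, -0.28 to 1.74 for Cpt2 and -0.74 to 0.48 for Etfdh. Their difference ran from -1.34 to 0.70 for Acadvl, -0.73 to 0.81 for Acadl, -0.18 to 0.92 for Hadha and -0.18 to 1.01 for Etfdh. For KC against WT, pancreas gave -4.52 to 1.97 for Acadvl, -1.47 to 0.37 for Acads and -0.19 to 1.004 for Hadhb, and blood at 30 weeks -1.07 to 1.99 for Acads and -0.69 to 3.56 for Cpt2.

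Genes called in the whole table between the KC tissues were 10, against 480 with DESeq2, 34 without a filter and 65 without the age term. For age in KC pancreas they were 28, against 422 with DESeq2, 686 without a filter and 0 with the set term. In KC blood they were 0, against 317 with DESeq2 and over 100 without a filter. For the difference of the slopes they were 6, against 242 with DESeq2 and 0 with RLE scaling. For KC against WT they were 28 in pancreas and 0 in blood, against 158 and 11 with DESeq2.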
